A study of Homo sapiens with 4 samples.

Results

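The genes described here are 10 factors that make, cleave or degrade histone mRNA: SLBP, NPAT, LSM10, LSM11, ZNF473, CASP8AP2, ERI1, CPSF3, CSTF2 and SYMPK. They were listed by symbol for their known roles, and all 10 were found among the 33640 genes counted. The counts came from 4 RNA libraries of H9, a line of human primed pluripotent stem cells, made from extracted nuclei that had been lightly fixed. A barcoded poly-T primer started the reverse transcription (RT), which was carried out either after (Post) or before (Pre) the Tn5 transposase cut the chromatin. In each order 1 library was prepared for RNA only, and 1 for RNA and DNA, in which DNA at the histone marks H3K27me3 and H3K27ac was profiled too. The groups were therefore Post, RNA only, Pre, RNA only, Post, RNA and DNA, and Pre, RNA and DNA. How far the RNA only libraries were taken through tagmentation is not given in the sources used here. No group had a replicate, so no difference below has a replicate check and intervals cover counting error only.

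Replication-dependent histone mRNAs end in a stem-loop instead of a poly(A) tail. SLBP binds the stem-loop, and the U7 snRNP, whose ring carries LSM10 and LSM11 in place of the Sm proteins SmD1 and SmD2, pairs with a sequence downstream of the cleavage site. ZNF473 helps to bridge SLBP and the U7 snRNP, CASP8AP2 (FLASH) binds LSM11, and together they bring in a cleavage complex shared with ordinary polyadenylation: the endonuclease CPSF3 (CPSF73), its scaffold SYMPK (symplekin) and CSTF2 (CstF64). NPAT activates histone gene transcription when cyclin E/CDK2 phosphorylates it at entry into S phase, and the exonuclease ERI1 trims and helps to degrade histone mRNA at the stem-loop. The mRNAs of these factors themselves are polyadenylated, unlike their main substrates.

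The totals were 6368721 counts for Post, RNA only, 9379073 for Pre, RNA only, 10089552 for Post, RNA and DNA and 8960724 for Pre, RNA and DNA. Levels are given as RPM, the count divided by its total and multiplied by 1000000. Only 6 clone-named genes, with names that begin FP236383 or FP671120, held 34.8% of all counts in Post, RNA only, 12.3% in Pre, RNA only, 15.8% in Post, RNA and DNA and 10.7% in Pre, RNA and DNA, which lowers the RPM of most other genes in Post, RNA only. Each log2 ratio was therefore centred: 1 RPM was added to both levels, and the median log2 ratio of the 11564 genes whose mean reached 10 RPM was subtracted. The subtracted medians were -0.44 for Post over Pre in the RNA only libraries, -0.09 for Post over Pre in the RNA and DNA libraries, 0.38 for RNA and DNA over RNA only in the Post libraries and 0.03 in the Pre libraries. The 6 markers of pluripotent cells lay between 29.7 and 1073 RPM in every library. The 11 markers of endoderm, mesoderm, neuroectoderm and trophoblast did not exceed 4.46 RPM, while the 3 fibroblast markers summed to between 151 and 220 RPM, mostly THY1, which pluripotent cells also express.

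All 10 factors were detected in all 4 libraries. Their levels summed to 315 RPM in Post, RNA only, 424 RPM in Pre, RNA only, 386 RPM in Post, RNA and DNA and 429 RPM in Pre, RNA and DNA. CASP8AP2 had the highest mean over the 4 libraries, 100.1 RPM, above 94.0% of the genes with any count. CPSF3, NPAT and SYMPK followed at 69.0, 63.2 and 63.1 RPM, ERI1 and SLBP were at 32.5 and 25.1 RPM, and CSTF2 was at 14.2 RPM. LSM10, ZNF473 and LSM11, the proteins particular to the U7 snRNP and its bridge, were the lowest at 9.01, 6.62 and 5.64 RPM, so 7 of the 10 factors passed the filter of a mean of 10 RPM.

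To set different genes beside each other, levels were also divided by length. The barcode sits on the poly-T primer, so counts need not grow with the length of a transcript. An order per kb can therefore carry a bias of length. Exonic length here is that of all annotated exons of a gene joined, whichever transcripts the cells made. Per kb of exonic sequence CPSF3 was the highest, with a mean of 18.7 RPM per kb and no overlap over the libraries with SLBP, which was next at 13.3 RPM per kb. The ranges of SLBP and CASP8AP2, at 12.3 RPM per kb, overlapped over the libraries. NPAT followed at 8.40 RPM per kb, and SYMPK, LSM10, CSTF2 and ERI1 lay between 5.09 and 5.99 RPM per kb with overlapping ranges. ZNF473 and LSM11 were the lowest, at 0.96 and 0.86 RPM per kb, also with overlapping ranges. Nuclear RNA contains introns, and per kb of the whole gene span the order changed. CASP8AP2 had the highest mean, 2.25 RPM per kb, with a range of 1.83 to 2.59 that overlapped the 0.94 to 1.93 of LSM10, and LSM10 was first in Post, RNA only. ERI1, which has the longest span, 114600 bases, was at 0.28 RPM per kb and ZNF473 at 0.24 RPM per kb, with overlapping ranges. Whether the deposited counts include intronic reads is not given in the sources used here.

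**Figure D1:**
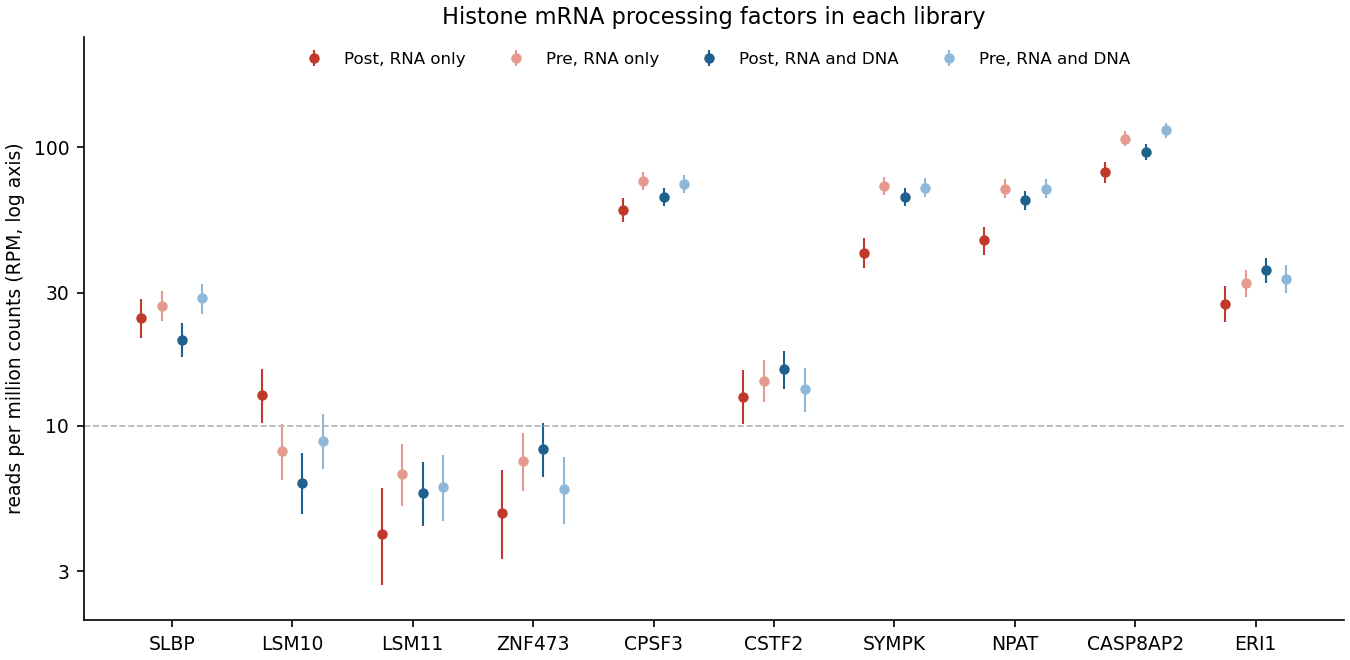
Level of each factor in each library, in RPM on a log axis; bars are exact 95% Poisson intervals and the dashed line marks 10 RPM. CASP8AP2 lies between 81.3 and 115 RPM in the 4 libraries, and only LSM10 has its highest level in Post, RNA only.

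SLBP, the stem-loop binding protein, had 155 counts (24.3 RPM) in Post, RNA only and 253 counts (26.97 RPM) in Pre, RNA only. In the RNA and DNA libraries it had 205 counts (20.3 RPM) in Post and 257 counts (28.7 RPM) in Pre. The lowest level was thus in Post, RNA and DNA. Its 95% interval, 17.6 to 23.3 RPM, did not overlap those of the Pre libraries, which began at 23.8 and 25.3 RPM. Centred, SLBP was 1.23-fold higher in Post than in Pre in the RNA only libraries (log2 ratio 0.30, interval 0.01 to 0.58) and lower in Post than in Pre in the RNA and DNA libraries (log2 ratio -0.38, interval -0.64 to -0.12). It stood above 82.6% of the 11564 genes in the first comparison and above 6.75% in the second. Without the centring its log2 ratio was -0.14 in the first, below 0 as in the second, where it was -0.48. A lower level in a bulk library cannot be told apart from fewer cells that hold the transcript.

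SLBP was also compared with genes that its work touches. The 71 histone genes with a HIST symbol, most of them replication-dependent and so its targets, summed to 124 counts for each SLBP count in Post, RNA only (interval 106 to 146), 50.3 in Pre, RNA only (44.5 to 57.2), 86.1 in Post, RNA and DNA (75.1 to 99.3) and 43.6 in Pre, RNA and DNA (38.5 to 49.5). This ratio is taken within a library and does not depend on the scaling between libraries. It was higher in Post than in Pre in both pairs, with intervals that did not overlap. The histone sum alone was 3008 RPM in Post and 1358 RPM in Pre in the RNA only libraries. In the RNA and DNA libraries it was 1750 RPM in Post and 1249 RPM in Pre. The ratio therefore carries the difference in histone counts as well as that in SLBP. Most mRNAs of these genes lack a poly(A) tail, so counts from a poly-T primer do not measure how much of them the nuclei held. Histone genes have near-identical copies, and the study's methods, written for the single-cell data, keep only uniquely mapped reads, so reads shared between copies may be missing from these sums. Against ERI1, the other protein that binds the stem-loop, SLBP had 0.89 counts per ERI1 count in Post, RNA only, 0.83 in Pre, RNA only, 0.56 in Post, RNA and DNA and 0.85 in Pre, RNA and DNA. The value for Post, RNA and DNA, with an interval of 0.47 to 0.67, lay below the other 3 intervals.

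LSM10, a ring protein of the U7 snRNP, had the widest range of the 10 factors. It had 82 counts (12.9 RPM) in Post, RNA only, against 76 counts (8.10 RPM) in Pre, RNA only. In the RNA and DNA libraries it had 63 counts (6.24 RPM) in Post and 79 counts (8.82 RPM) in Pre. Post, RNA only was the highest of the 4 libraries although it was the shallowest. Centred, LSM10 was 2.06-fold higher in Post than in Pre in the RNA only libraries (interval 1.54 to 2.77), above 98.8% of the 11564 genes that passed the filter, which LSM10 itself did not, and above 98.0% of the 21700 genes with a mean of 1 RPM or more. For Post over Pre with RNA and DNA its log2 ratio was -0.35, with an interval of -0.78 to 0.09 that includes 0. Within Post, RNA and DNA over RNA only gave a log2 ratio of -1.32 (interval -1.75 to -0.88), above 0.88% of the genes that passed the filter and above 0.72% of those at 1 RPM or more. Within Pre it gave 0.08 (interval -0.34 to 0.51).

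LSM11, the partner of LSM10 in the same ring, did not share its pattern. It had 26 counts (4.08 RPM) in Post, RNA only, 63 (6.72 RPM) in Pre, RNA only, 58 (5.75 RPM) in Post, RNA and DNA and 54 (6.03 RPM) in Pre, RNA and DNA, and its 4 intervals overlapped. All 4 centred log2 ratios of LSM11 lay between -0.16 and 0.04, with intervals that include 0. As a ratio within a library, which no scaling can change, there were 3.15 LSM10 counts per LSM11 count in Post, RNA only (interval 2.01 to 5.11), 1.21 in Pre, RNA only (0.85 to 1.71), 1.09 in Post, RNA and DNA (0.75 to 1.58) and 1.46 in Pre, RNA and DNA (1.02 to 2.11). The interval for Post, RNA only overlapped that of Pre, RNA and DNA by a narrow margin and lay above the other 2.

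ZNF473, the zinc finger protein that bridges to the U7 snRNP, had 31 counts (4.87 RPM) in Post, RNA only, 70 (7.46 RPM) in Pre, RNA only, 83 (8.23 RPM) in Post, RNA and DNA and 53 (5.91 RPM) in Pre, RNA and DNA. Its intervals overlapped between Post and Pre in both pairs. Centred, it was 1.42-fold higher in Post than in Pre in the RNA and DNA libraries (interval 1.04 to 1.95), and above 92.6% of the 21700 genes at 1 RPM or more, where its own mean of 6.62 RPM belongs. Its log2 ratio was -0.09 (interval -0.64 to 0.45) in the RNA only libraries. ZNF473 shares 233 bases at its start with VRK3 on the opposite strand, and 2 long noncoding RNA genes overlap it. Since the strand setting of the counting is not given, reads of these genes cannot be told apart there.

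CPSF3, the endonuclease, had 380 counts (59.7 RPM) in Post, RNA only, 713 (76.0 RPM) in Pre, RNA only, 669 (66.3 RPM) in Post, RNA and DNA and 663 (74.0 RPM) in Pre, RNA and DNA. Its centred log2 ratios of Post over Pre were 0.09 (interval -0.09 to 0.27) and -0.06 (interval -0.22 to 0.09), and its largest shift was a log2 ratio of -0.23 (interval -0.41 to -0.04) for RNA and DNA over RNA only within Post. SYMPK, the scaffold, had 266 counts (41.8 RPM) in Post, RNA only, against 683 (72.8 RPM) in Pre, RNA only. It had 669 counts (66.3 RPM) in Post, RNA and DNA and 642 (71.6 RPM) in Pre, RNA and DNA. The low value stood in Post, RNA only alone, and the intervals of the other 3 libraries overlapped. Centred, SYMPK was lower in Post than in Pre in the RNA only libraries, with a log2 ratio of -0.35 (interval -0.56 to -0.15), and at -0.02 (interval -0.17 to 0.14) in the RNA and DNA libraries.

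The ratio of these 2 subunits of 1 complex differed in a single library. There were 1.43 CPSF3 counts per SYMPK count in Post, RNA only (interval 1.22 to 1.68), against 1.04 in Pre, RNA only (0.94 to 1.16), 1.00 in Post, RNA and DNA (0.90 to 1.11) and 1.03 in Pre, RNA and DNA (0.93 to 1.15). CSTF2, the third protein of the cleavage complex considered here, had 81 counts (12.7 RPM) in Post, RNA only, 136 (14.5 RPM) in Pre, RNA only, 161 (16.0 RPM) in Post, RNA and DNA and 121 (13.5 RPM) in Pre, RNA and DNA. All 4 intervals overlapped. Its centred log2 ratios of Post over Pre were 0.26 and 0.32, with intervals of -0.12 to 0.64 and -0.01 to 0.65 that both include 0. CSTF2 had 0.30 counts per SYMPK count in Post, RNA only, 0.20 in Pre, RNA only, 0.24 in Post, RNA and DNA and 0.19 in Pre, RNA and DNA.

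NPAT, the transcriptional activator, had 295 counts (46.3 RPM) in Post, RNA only, 667 (71.1 RPM) in Pre, RNA only, 651 (64.5 RPM) in Post, RNA and DNA and 636 (71.0 RPM) in Pre, RNA and DNA. Once centred, its 4 log2 ratios lay between -0.17 and 0.09, all with intervals that include 0. CASP8AP2 had 518 counts (81.3 RPM) in Post, RNA only, 1007 (107 RPM) in Pre, RNA only, 973 (96.4 RPM) in Post, RNA and DNA and 1034 (115 RPM) in Pre, RNA and DNA. It was the most deeply counted factor, and its shifts were small: Post over Pre gave a centred log2 ratio of 0.04 (interval -0.11 to 0.19) for RNA only and -0.16 (interval -0.29 to -0.04) for RNA and DNA. ERI1, the exonuclease, had 175 counts (27.5 RPM) in Post, RNA only, 305 (32.5 RPM) in Pre, RNA only, 366 (36.3 RPM) in Post, RNA and DNA and 302 (33.7 RPM) in Pre, RNA and DNA. The centred log2 ratios of ERI1 were 0.20 in both comparisons of Post over Pre, with intervals of -0.06 to 0.47 and -0.02 to 0.42.

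**Figure D2:**
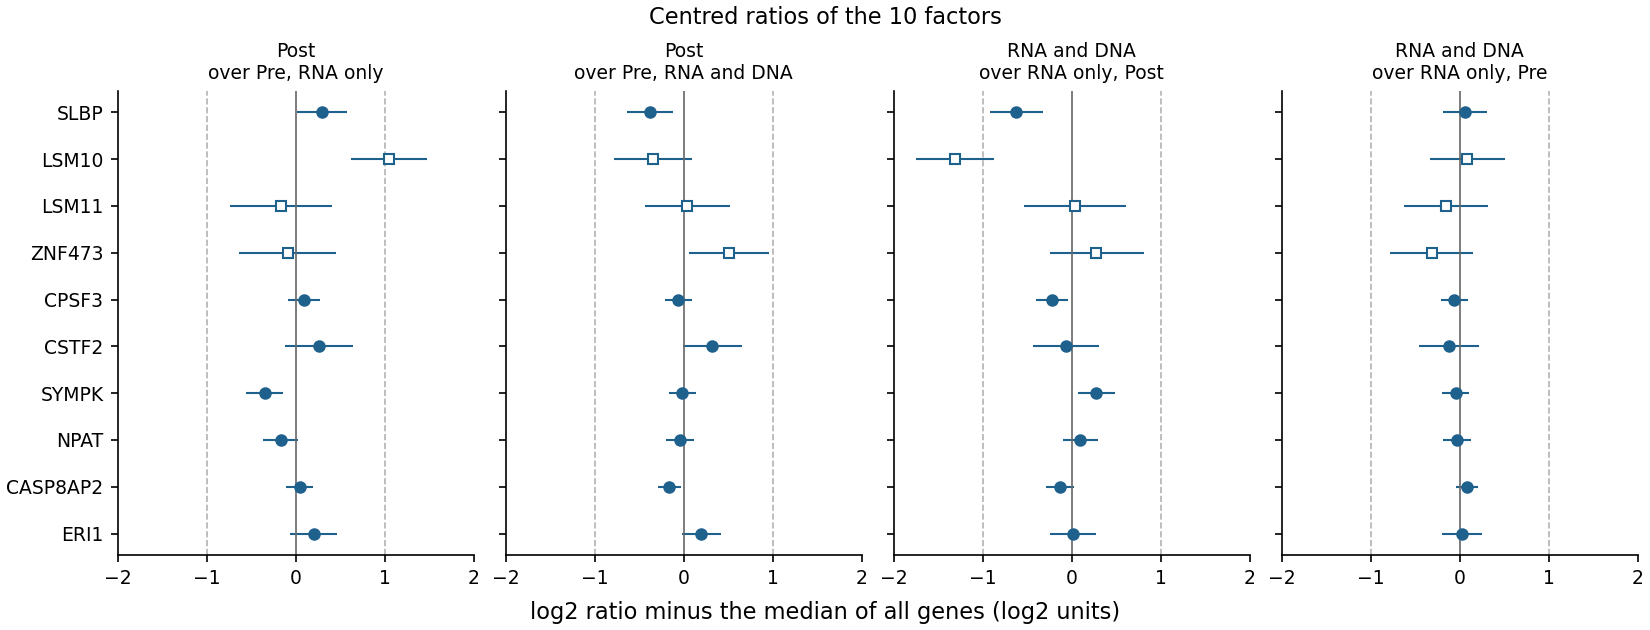
Centred log2 ratio of each factor in the 4 comparisons, Post over Pre or RNA and DNA over RNA only, with exact 95% counting intervals; open squares are the 3 factors with a mean under 10 RPM, and dashed lines mark 2-fold. LSM10 lies at 1.05 for Post over Pre in the RNA only libraries and at -1.32 for RNA and DNA over RNA only within Post, and all 10 intervals include 0 in the Pre libraries.

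A gene was called apart when its centred ratio was at least 2-fold either way and its mean was at least 10 RPM. By this rule 0 of the 7 factors tested were called in any comparison. For Post over Pre in the RNA only libraries 1.38% of all 11564 genes were called, in the RNA and DNA libraries 0.251%, for RNA and DNA over RNA only within Post 2.36%, and within Pre 0.0173%. With so small a share of all genes called, a count of 0 of 7 is not a result about the factors. With the filter at a mean of 1 RPM all 10 factors were tested. The shares of all 21700 genes called were then 1.96%, 0.645%, 2.25% and 0.106% in the same order of comparisons, and 1 factor was called, LSM10, for RNA and DNA over RNA only within Post. An additive model of both factors of the design, which has 1 residual degree of freedom, was fitted as an alternative for Post over Pre. It called 0 of the 7 factors with edgeR, which called 0.0173% of all genes at an adjusted p under 0.05, and 0 of the 7 with DESeq2, which called 0.225%. At an unadjusted p under 0.05 the count was also 0 of 7 with either tool, and the lowest adjusted p of a factor was 0.9996 with edgeR and 0.9999 with DESeq2. The term tested is the shift that both pairs share, so shifts of opposite sign, as for SLBP, tend to cancel in it. The model therefore cannot decide on such shifts, and LSM10, under the filter, was not in it.

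The medians of the 10 factors lay close to those of all genes, which are 0 by construction. For Post over Pre the median was 0.07 with RNA only, with 6 factors above 0 and 4 below, and -0.03 with RNA and DNA, with 4 above and 6 below. For RNA and DNA over RNA only it was -0.03 within Post, with 5 on each side, and -0.04 within Pre, with 4 above and 6 below. The median size of the shift, its sign ignored, was 0.19 for the factors and 0.20 for all genes in the first comparison, 0.18 and 0.15 in the second, 0.18 and 0.20 in the third, and 0.07 and 0.09 in the Pre libraries.

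**Figure D3:**
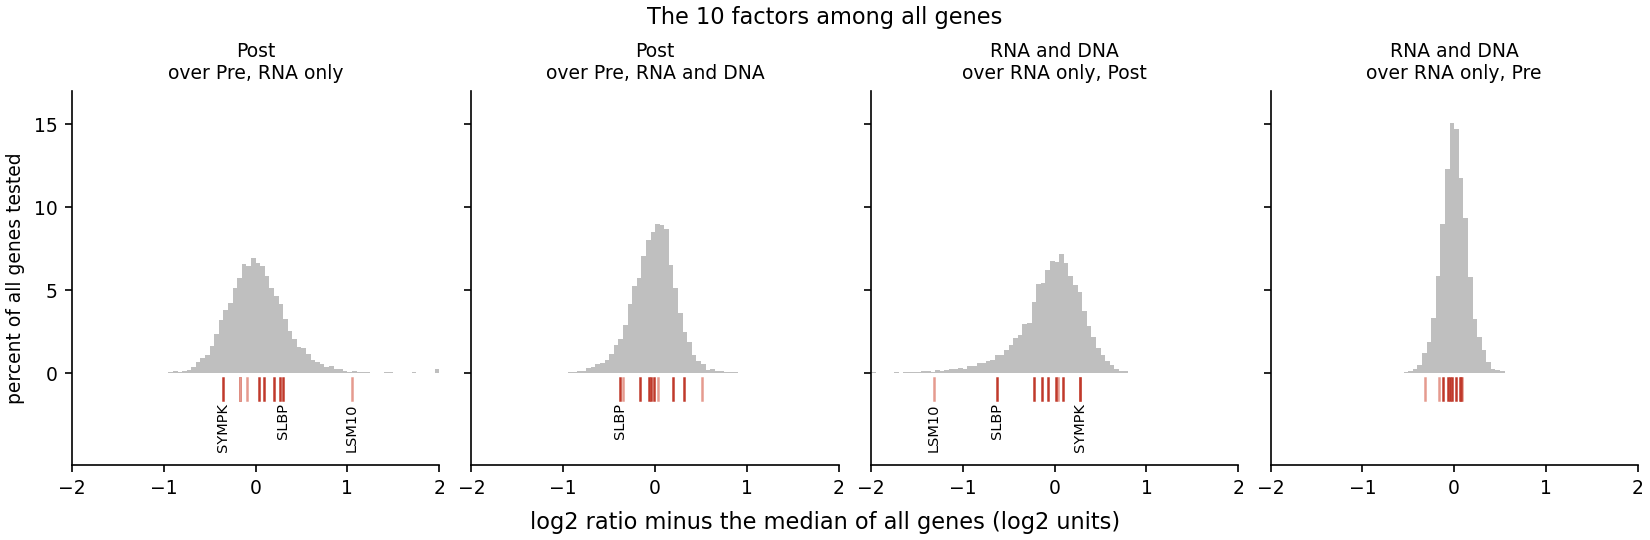
Distribution of the centred log2 ratios of the 11564 genes tested (grey, percent of genes per 0.05 log2 units, values beyond 2 gathered at the edge), with a red tick for each factor, paler for the 3 under a mean of 10 RPM. LSM10 lies above 98.8% of genes for Post over Pre in the RNA only libraries and above 0.88% of them for RNA and DNA over RNA only within Post.

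The shifts of all genes went with the length of the gene, and the factors span a wide range of lengths. Among genes with a span of up to 10 kb, the 973 genes to whose class LSM10 belongs with its 6671 bases, Post over Pre had a median centred log2 ratio of 0.40 with RNA only and -0.26 with RNA and DNA, and that of RNA and DNA over RNA only within Post was -0.56. Among the 5305 genes over 50 kb, the class of NPAT and ERI1, the same medians were -0.07, 0.07 and 0.11. LSM10 was at 1.05, -0.35 and -1.32 in these comparisons, of which the third is made of the Post libraries of the first and second and is no separate evidence. SLBP, with a span of 19614 bases, was at 0.30, -0.38 and -0.63, against medians of 0.12, -0.13 and -0.19 in its class of 1873 genes between 10 and 25 kb. LSM11 and CSTF2 belong to the same class, with LSM11 at -0.16, 0.04 and 0.03 and CSTF2 at 0.26, 0.32 and -0.07. In the class over 50 kb NPAT was at -0.17, -0.04 and 0.09, and ERI1 at 0.20, 0.20 and 0.01. The part of length in the shift of any 1 factor was not tested.

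**Figure D4:**
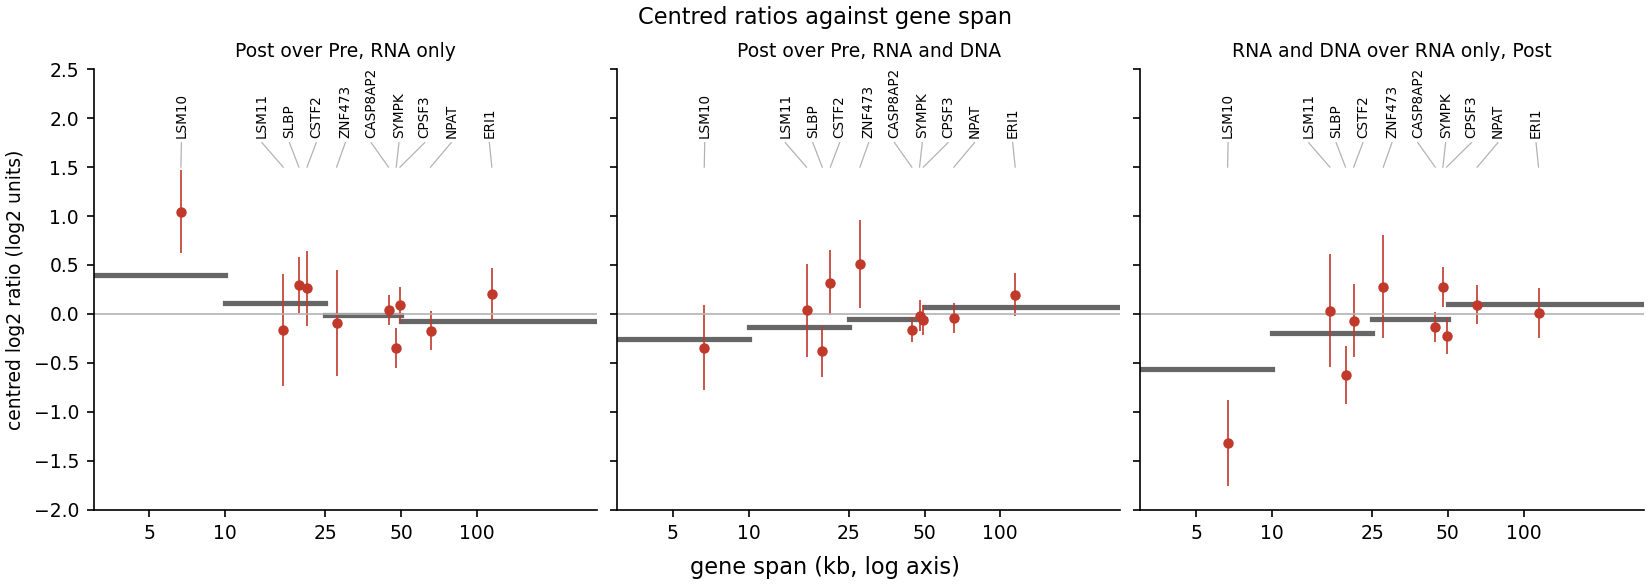
Centred log2 ratio of each factor (red, exact 95% counting intervals) against the span of its gene in kb on a log axis, in 3 comparisons; grey lines are medians of all genes tested in 4 classes of span, and names run in order of span. In the shortest class the grey line lies at 0.40, -0.26 and -0.56, and LSM10 at 1.05, -0.35 and -1.32; the third comparison uses the Post libraries of the other panels.

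A poly-T primer can also start from runs of A inside a transcript. Runs of at least 15 A on the sense strand of the gene span numbered 1 in LSM10, 2 each in SLBP and LSM11, 4 each in ZNF473 and CSTF2, 5 each in CPSF3 and SYMPK, 7 in NPAT, 9 in CASP8AP2 and 14 in ERI1. Per 100 kb of span they were between 10.1 in CPSF3 and 20.2 in CASP8AP2, with LSM10 at 14.99, ERI1 at 12.2 and SLBP at 10.2, so the counts mostly follow the span. The runs of LSM10, which had the widest range, and of SLBP, which had opposite signs for Post over Pre, are shown with 20 bases on either side, read from the GRCh38 genome on the minus strand, where both genes lie; capitals mark the run. All 3 lie in introns. With its flanks, the stretch of the LSM10 run of 25 A is at chr1:36391962-36392026. Those of the SLBP runs of 17 and 16 A, also with flanks, are at chr4:1701127-1701183 and chr4:1709594-1709649. Whether reads started there cannot be read from counts per gene.
LSM10 run: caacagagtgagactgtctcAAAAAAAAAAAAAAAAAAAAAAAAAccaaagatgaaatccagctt
SLBP run of 17: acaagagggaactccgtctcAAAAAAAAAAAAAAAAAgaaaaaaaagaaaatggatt
SLBP run of 16: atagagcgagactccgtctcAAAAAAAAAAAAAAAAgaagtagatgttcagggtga

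Of the 10 factors, 5 lie head to head with another protein-coding gene, their starts within 1000 bases on opposite strands. Of the 9867 protein-coding genes that passed the 10 RPM filter, 17.9% do. The 10 factors include 3 under that filter, ZNF473 among them, so the shares are of unlike sets. The pairs are SLBP with TACC3, 514 bases apart, NPAT with ATM, 406 bases, ZNF473 with VRK3, 232 bases, CPSF3 with ITGB1BP1, 123 bases, and SYMPK with FOXA3, 795 bases. ATM, which encodes a DNA damage kinase, was at 137 RPM in Post, RNA only, 175 RPM in Pre, RNA only, 190 RPM in Post, RNA and DNA and 181 RPM in Pre, RNA and DNA. There were 0.34 NPAT counts per ATM count in Post and 0.41 in Pre in the RNA only libraries (intervals 0.29 to 0.39 and 0.37 to 0.44), and 0.34 in Post and 0.39 in Pre in the RNA and DNA libraries (0.31 to 0.37 and 0.36 to 0.43). The ratio was lower in Post in both pairs, by margins within which the intervals overlapped. There were 0.35 SLBP counts per TACC3 count in Post, RNA only (interval 0.29 to 0.42), which lay above the values of 0.23, 0.19 and 0.23 in Pre, RNA only, Post, RNA and DNA and Pre, RNA and DNA. TACC3 itself was at 69.7 RPM in Post, RNA only and 119 RPM in Pre, RNA only. In the RNA and DNA libraries TACC3 was at 105 RPM in Post and 127 RPM in Pre. The ratio therefore carries the level of TACC3 as well as that of SLBP. VRK3, ITGB1BP1 and FOXA3 reached at most 21.4 RPM in any library.

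The start of NPAT is shown because its promoter window overlaps that of ATM, which begins on the opposite strand beyond the sequence printed. The window holds 250 bases before and 50 after the start, at chr11:108222589-108222888 of GRCh38.p14 in RefSeq, on the minus strand, and the capitals mark the 72 bases shared with the window of ATM.
NPAT promoter: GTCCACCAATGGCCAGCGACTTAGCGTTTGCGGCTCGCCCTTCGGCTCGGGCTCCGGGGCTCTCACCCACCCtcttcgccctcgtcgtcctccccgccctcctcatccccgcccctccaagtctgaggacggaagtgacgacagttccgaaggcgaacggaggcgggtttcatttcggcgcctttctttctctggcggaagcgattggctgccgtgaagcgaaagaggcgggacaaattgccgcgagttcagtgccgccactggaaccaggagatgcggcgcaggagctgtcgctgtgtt

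RefSeq windows of this kind were at hand for 8 of the 10 factors. They were searched for TTTGGCGC, a sequence of the type that E2F, the transcription factor of S phase entry, binds, and for CCAAT, the box bound by NF-Y, each on both strands. TTTGGCGC occurred in 3 of the 8, CPSF3, CASP8AP2 and CSTF2, and in 0.652% of all 35116 windows. CCAAT occurred in 3 of the 8, NPAT, LSM10 and CASP8AP2, and in 34.6% of all windows. The 35116 windows were not limited by gene type or by level in these libraries. They are therefore no matched background for the 8, and enrichment was not tested. The matches to TTTGGCGC begin 218 bases before the start of CPSF3, 149 before that of CASP8AP2 and 6 before that of CSTF2, all on the plus strand, at chr2:9423425-9423454, chr6:89829720-89829749 and chrX:100820374-100820403 with their flanks. They are shown with the match in capitals. These are matches of letters, and these data measure no binding.
CPSF3: gtgccgcggccTTTGGCGCccaggcagcta
CASP8AP2: gattactggagTTTGGCGCcaaccgtgttt
CSTF2: cggaagtgtgcTTTGGCGCaccggaagccg

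The other genes of the pathway were taken from 7 lists fixed by function. The 5 genes of the core Sm ring that the U7 snRNP shares with spliceosomal snRNPs had a median centred log2 ratio of Post over Pre of 0.44 with RNA only and -0.23 with RNA and DNA, and of -0.56 for RNA and DNA over RNA only within Post. SNRPB, its most extreme gene, had 131 RPM in Post, RNA only and 90.1 RPM in Pre, RNA only, and 76.4 RPM in Post, RNA and DNA and 101 RPM in Pre, RNA and DNA. It was at 0.97 in the RNA only pair, and it was the 1 gene of the list called, at -1.15 within Post, where 2.36% of all genes were called. SNRPF was the lowest in the RNA only pair at -0.07, and in the RNA and DNA pair all 5 were below 0, between SNRPD3 at -0.11 and SNRPG at -0.39. Beside these list medians LSM10 was at 1.05, -0.35 and -1.32, and LSM11, with intervals that include 0, at -0.16, 0.04 and 0.03.

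The 17 genes of the cleavage and polyadenylation machinery had medians of 0.14 and 0.00 for Post over Pre in the RNA only and in the RNA and DNA libraries, with 13 and 9 genes above 0, and of -0.12 for RNA and DNA over RNA only within Post, with 15 of the 17 below 0. In the 4 comparisons 0 of them were called. CSTF1, a partner of CSTF2 in the same complex, was the highest with RNA only at 0.45, and CPSF4, a zinc finger subunit of CPSF, with RNA and DNA at 0.16. PABPN1, the nuclear poly(A) binding protein, was the lowest in both, at -0.36 and -0.73. The 11 partners in cap binding, elongation and export had medians of 0.04 and -0.19, with 0 called. NCBP1, the large cap binding subunit, was the highest in both pairs at 0.25 and 0.32, and the lowest were DDX19B, an export helicase, at -0.43 with RNA only and NELFE, a subunit of the elongation factor NELF, at -0.63 with RNA and DNA.

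Among the 15 genes of histone mRNA decay, 2 were called, both of the LSm ring that binds the oligouridylated end, in comparisons that called 1.38% and 2.36% of all genes. LSM3 had 73.8 RPM in Post, RNA only and 29.7 RPM in Pre, RNA only, and 26.6 RPM in Post, RNA and DNA and 31.6 RPM in Pre, RNA and DNA. Its centred log2 ratio was 1.72 for Post over Pre in the RNA only libraries and -1.82 for RNA and DNA over RNA only within Post. LSM7 was at 1.07 and -1.14 in the same comparisons. The lowest genes of the list for Post over Pre were DCP1A, a decapping factor, at -0.30 with RNA only and LSM5 at -0.58 with RNA and DNA, where the uridylyl transferase TUT7 was the highest at 0.14. The list had medians of 0.29 and -0.15 for the same pairs, against 0.20 in both for ERI1.

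The 8 genes of histone gene transcription and its cyclin E/CDK2 coupling, where NPAT belongs, had medians of 0.04 and -0.07 for Post over Pre, with 0 called. They ran between CCNE1, cyclin E1, at 0.29 and E2F1 at -0.15 with RNA only, and between E2F1 at 0.09 and CCNA2, cyclin A2, at -0.57 with RNA and DNA. The 8 genes of SLBP turnover, of which 0 were called, had medians of 0.35 and -0.15. FEM1A, a substrate adaptor of a ubiquitin ligase, was the highest in both at 0.71 and 0.34, and CCNF, cyclin F, was the lowest with RNA only at -0.24. The 7 replacement histones and H3.3 chaperones, whose mRNAs are polyadenylated, had medians of 0.14 and -0.49. H2AFZ, which encodes H2A.Z, was the highest in the RNA only pair at 0.57 and the 1 gene called, at -1.01 for RNA and DNA over RNA only within Post, again beside 2.36% of all genes. HIRA, an H3.3 chaperone, was the lowest in that pair at -0.32, and the RNA and DNA pair ran between ATRX at 0.10 and H3F3B, an H3.3 gene, at -0.59. For RNA and DNA over RNA only within Post the medians were 0.00 for the cap binding list, -0.32 for decay, -0.22 for transcription, -0.38 for SLBP turnover and -0.53 for the replacement histones. Several Sm, LSm and histone variant genes have near-identical processed copies in the genome, so their counts are uncertain.

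**Figure D5:**
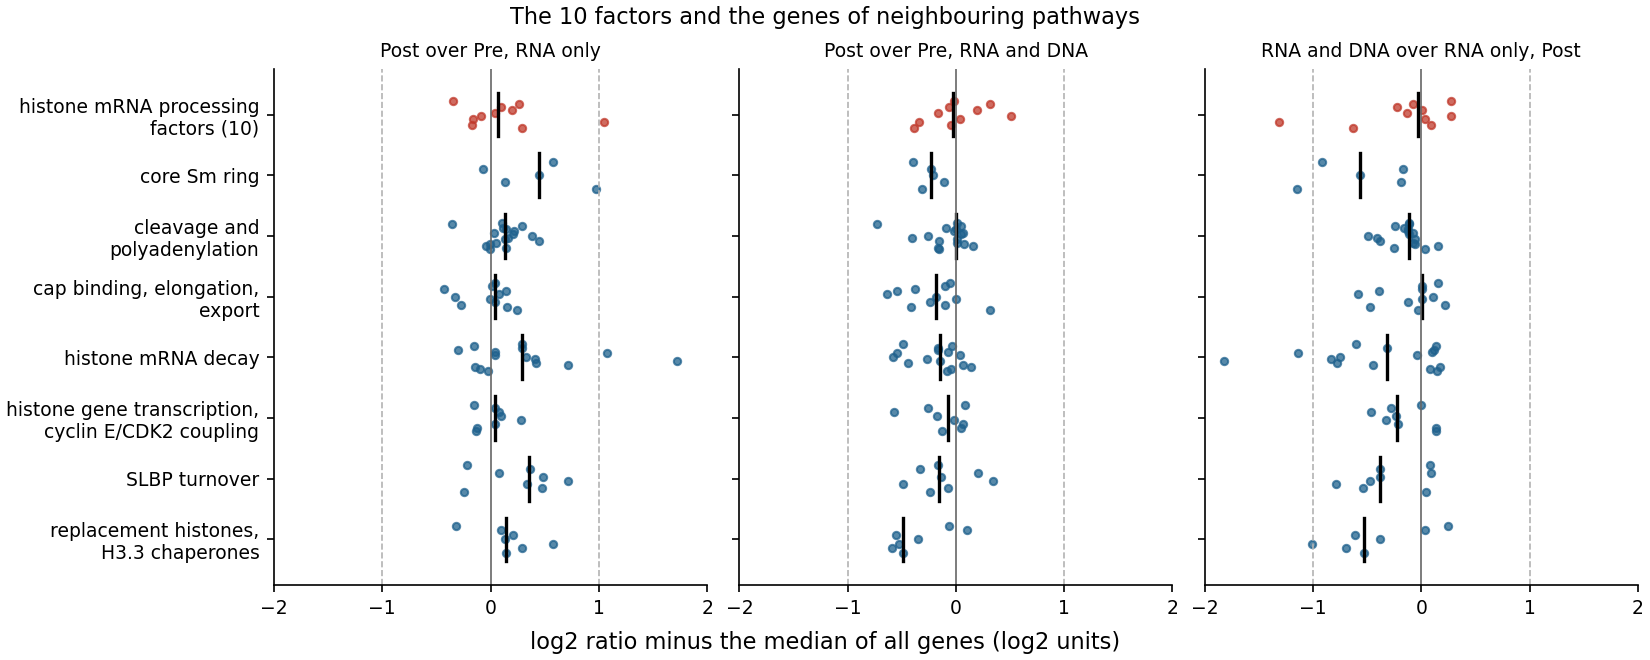
Centred log2 ratios of the 10 factors (red) and of the genes of 7 related lists (blue) in 3 comparisons; each dot is a gene, the black bar is the median of its list and dashed lines mark 2-fold. The core Sm ring has medians of 0.44, -0.23 and -0.56, while the factors have medians of 0.07, -0.03 and -0.03.

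LSM10 had the widest range of centred log2 level over the 4 libraries, 1.25, and CASP8AP2 the narrowest, 0.14. The genes with the profile nearest to that of LSM10, each profile taken relative to its own mean over the 4 libraries and taken among those at 50 RPM or more on average, were RPS26, RPL17 and RPS10, at Euclidean distances of 0.06, 0.07 and 0.08 over 4 libraries. All 3 encode ribosomal proteins. They were the nearest of 4227 candidates to a profile with wide counting error. LSM10 had an interval of 10.2 to 16.0 RPM in Post, RNA only, so which genes rank nearest is uncertain. RPS26 had 77.7 RPM in Post, RNA only, 48.5 RPM in Pre, RNA only, 38.9 RPM in Post, RNA and DNA and 51.6 RPM in Pre, RNA and DNA. Ribosomal protein genes have many near-identical processed copies, and their counts are uncertain for the same reason.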

How the data were processed

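Counts per gene symbol from 4 libraries, 1 per condition, were used as deposited. Per the labels, the authors worked on the GRCh38 build and used the tools STAR 2.7.11b, SAMtools, Bowtie2 2.5.3, Bowtie 1.3.1 and Trim Galore 0.6.10. The methods, written for the single-cell data, describe removing duplicates that share a molecular identifier and a mapped position, keep only uniquely mapped reads, and do not say that the bulk libraries were treated alike. Annotation and strand setting are not given in the sources used here. A further 60 barcode columns, whose condition no label gives, were left out.

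Counts were scaled to RPM and centred log2 ratios of RPM plus a pseudocount of 1 were computed. Intervals are 95% and exact (Poisson for levels, Clopper-Pearson for ratios of counts), and cover counting error only. With 1 library per condition no p-value is a main result: a gene was called at 2-fold and a mean of at least 10 RPM. Places and lengths came from GENCODE 44, matched by name for 21841 genes and by an older name for 506, and the other 11293 genes have no length here. The factors and lists, and the rule for the genes named, were chosen with earlier results of these data known. Named were all 10 factors, their neighbours within 1000 bases that have a symbol in the files, of each list the called genes and the highest and lowest in each pair of Post over Pre, and the 3 nearest profiles. A gene under this rule is not reported here. The neighbours IAH1 and RSPH6A, on the same strand, overlap no factor. Alternatives were other scalings, filters, pseudocounts and folds, and additive models with edgeR 4.0.16 and DESeq2 1.42.0 in R 4.3.3. The calling steps were tested on simulated data. Other software was scipy 1.17.1, pandas 2.3.3, numpy 2.4.6 and matplotlib 3.10.9 under Python 3.11.15.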

Additional observations from a re-analysis of the deposited data

Results flagged for a closer look

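SLBP lay on opposite sides of the median of all genes in the 2 comparisons of Post over Pre, with both counting intervals off 0. Its centred log2 ratio was 0.30 in the RNA only libraries and -0.38 in the RNA and DNA libraries. Without subtraction of the median of all genes both were below 0, at -0.14 and -0.48, so the opposite signs depend on the centring; with totals that leave out the 6 clone-named genes and no subtraction they were 0.27 and -0.40. The difference between the 2 values was not tested, since each library is alone in its condition. No other factor was on opposite sides in this way.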

How the results depend on the processing

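Of 40 centred ratios of single factors, 0 left their counting interval with TMM or median-of-ratios scaling, totals without the 20 most abundant genes, pseudocounts of 0.1 or 5 RPM, a minimum of 1 RPM or protein-coding genes only, and likewise 0 of the 16 of the 4 factors over 50 RPM. The median was subtracted again after each change of scaling. That cancels a library size apart from the pseudocount and the filter, so these scalings could hardly move a ratio. A pseudocount of 5 changed the sign of 3 and a minimum of 1 RPM that of 2, all within their intervals. Without subtraction of the median, 15 of 40 left their interval and 9 changed sign, SLBP for Post over Pre in the RNA only libraries among them. The median of the factors for Post over Pre in the RNA only libraries was then -0.37, and for RNA and DNA over RNA only within Post 0.35. Without the 6 clone-named genes in the totals, an alternative chosen after seeing the data, 0 of 40 left their interval with no median subtracted either, and these medians were 0.05 and -0.00. With these totals, and with totals without the 20 most abundant genes, LSM10 passed the filter and was the 1 factor called for Post over Pre in the RNA only libraries, and the 1 for RNA and DNA over RNA only within Post; of all genes 1.49% and 2.37% were called without the clone-named genes, and 1.57% and 2.47% without the 20. In the second of these comparisons 1 factor was also called with a minimum of 1 RPM, again LSM10, and 1 at 1.5-fold, SLBP, where 2.25% and 8.97% of all genes were called. No paired analysis was possible because the groups share only replicate number 1; the additive model of the 2 factors of the design, which sets Post against Pre within each pair of libraries, was fitted in its place and called 0 of the 7 genes tested. A comparison with 1 library left out has nothing to compare, so none was made. LSM10, LSM11 and ZNF473 rest on 26 to 83 counts per library, and 9 of their 12 intervals include 0.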
